A study of Caenorhabditis elegans with 4 samples.

Results

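The transcriptome described here is that of untreated wild-type N2 *C. elegans*, the standard laboratory strain, taken from mixed-stage cultures fed the bacterium OP50 at 20°C. It rests on 2 of the 4 RNA-seq libraries of the series, the untreated control replicates 1 and 2, chosen by their label alone, and they are called library 1 and library 2 below. The other libraries came from animals exposed to cisplatin and were not analysed here. RNA was captured by its poly(A) tail, and the control populations were collected as biological replicates. The table held 15408 genes of the 6 nuclear chromosomes. Of these, 58 carried a failed estimate in an untreated library, which the table lists at 0, and the remaining 15350 genes are described. They include 14511 of 19983 annotated protein-coding genes, 72.6%, and counts of described members are to be read beside that share. Levels are FPKM, fragments per kilobase of transcript scaled to the mapped fragments of its library, so genes can be set beside each other per unit of length. Both libraries' values are given for each gene in place of a mean and error, and no test was made between them. The ranking and all shares of the sum cover the genes described and no others.

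A mixed culture of *C. elegans* holds embryos, larvae of several stages and adults, and most adults are self-fertile hermaphrodites with both sperm and oocytes. Somatic tissues such as intestine, muscle, epidermis and nervous system have fixed cell numbers, while the germline grows until it holds a large share of the nuclei of an adult. A whole-animal library therefore sums cells of very different number and size, and fewer cells of a type and less RNA per cell cannot be told apart. Yolk, cuticle collagen and sperm proteins are each made at a known place and stage, so their transcripts bear on which animals a culture held.

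A small number of transcripts held most of the summed FPKM, while most genes were at moderate or low levels. Mean FPKM over both libraries ran from 0 to 14348, with a median of 10.003 and quartiles of 2.62 and 35.8. The classes of 1 to under 10 FPKM (6077 genes) and 10 to under 100 FPKM (6378 genes) together held most genes. Only 149 genes, 0.971% of those described, reached 1000 FPKM or more, and they held 53.0% of the summed FPKM of library 1 and 42.9% of that of library 2. The next class, 100 to under 1000 FPKM, had 1150 genes with 26.8% and 28.2% of the sum. At the other end, 1546 genes were above 0 but under 1 FPKM and held 0.0447% and 0.160%. A further 50 genes were listed at 0 in both libraries, 29 of them noncoding RNA genes.

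**Figure D1:**
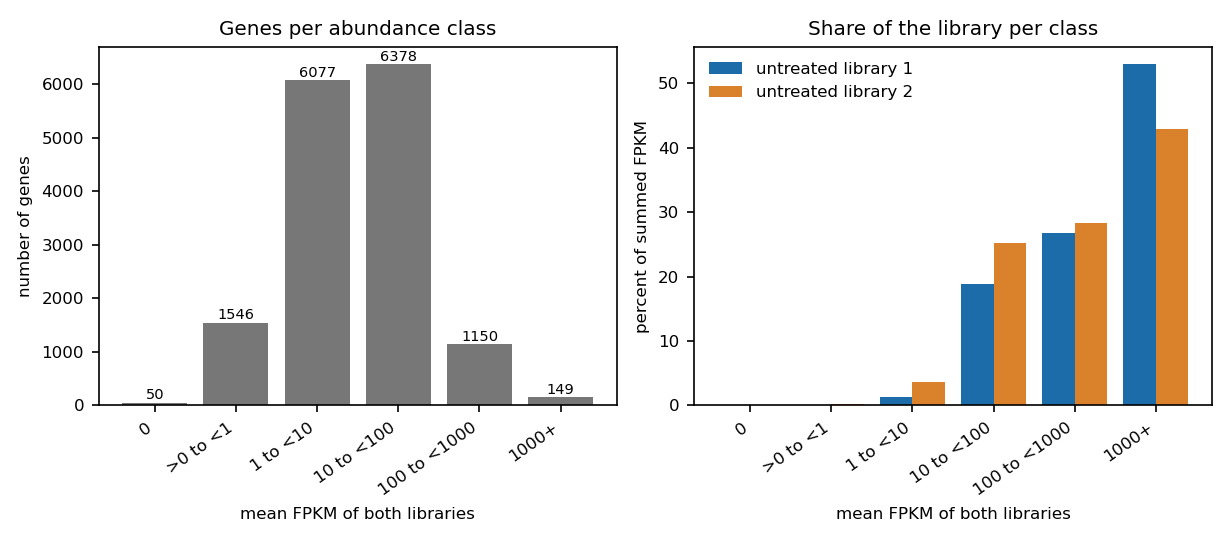
Number of genes in each class of mean FPKM (left) and percent of the summed FPKM of each untreated library held by that class (right, 1 bar per library). The 149 genes at 1000 FPKM or more are the smallest class above 0 by number and hold the largest share in both libraries.

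A mean of 1 FPKM or more was reached by 13754 genes, 89.6%. By single libraries, 12048 genes reached 1 FPKM in library 1 and 14477 in library 2, and 11959 did so in both. The authors' confidence bounds, read as 95% Poisson intervals, correspond to about 11.8 fragments for a gene near 1 FPKM in either library, and to 99.1 and 87.6 fragments near 10 FPKM. Values under 1 FPKM thus rest on few fragments. The 10 most abundant genes took 9.30% of the summed FPKM in library 1 and 7.05% in library 2, and the first 100 took 46.2% and 36.998%. The number of genes needed to reach 50% of the sum was 124 in library 1 and 249 in library 2.

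The libraries were alike in the order of their genes and differed in the balance between abundant and scarce ones. Across the 15350 genes, log2(FPKM + 0.5) of library 1 and library 2 had a Pearson correlation of 0.946 and a Spearman correlation of 0.945, given as a description because genes are not independent replicates. In the class of 1000 FPKM or more, 140 of 149 genes lay within 2-fold of each other, and in the class of 100 to under 1000 it was 1078 of 1150. From 1 to under 10 FPKM it was 1940 of 6077. The direction also changed with abundance. The median ratio of library 2 over library 1 was 0.696 among the most abundant genes, where 145 of 149 were higher in library 1, and 2.63 from 1 to under 10 FPKM, where 5651 genes were higher in library 2. Over all genes described, 11639 of 15350, 75.8%, were higher in library 2. By class it was 1400 of 1546 genes above 0 but under 1 FPKM and 5651 of 6077 from 1 to under 10. It was 4165 of 6378 from 10 to under 100, 419 of 1150 from 100 to under 1000 and 4 of 149 at 1000 or more. Counts of genes higher in a library are to be read beside the share at their level as well as that of all genes. Summed FPKM was 1116540 in library 1 and 963912 in library 2, and the median gene had 6.65 and 12.7 FPKM.

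Ribosomal protein genes made up the top of the ranking. Cytosolic ribosomal proteins build the small and large subunits of the ribosome, and are needed in equal numbers in every cell. All 10 most abundant genes, 23 of the first 25 and 44 of the first 50 were in the ribosomal protein list. The list leaves out *fau-1* (deposited as *rps-30*), at rank 37, which also encodes a small-subunit protein. It is thus in none of the counts and shares given for ribosomal protein genes. The first was *rpl-41.2* (F54D7.7, on chromosome I from 4790292 to 4790642), with 18211 FPKM in library 1 and 10485 in library 2. Its coding part of 66 bases, 22 codons, is the shortest of the first 25. *rpl-39*, also a very short large-subunit protein of 51 codons, followed with 11765 and 9182 FPKM. *rps-25*, of the small subunit, had 10374 and 6981 FPKM. The next places belonged to *rpl-36A* (named *rpl-41* in the deposited table) with 9937 and 6583 FPKM and *rpl-38* with 9740 and 6549 FPKM. Each of these genes was higher in library 1 than in library 2. Ranks 6 to 10 were all small-subunit genes. *rps-28* had 9808 and 5781 FPKM, *rps-23* had 9281 and 5966 FPKM, *rps-8* had 8755 and 5711 FPKM, *rps-24* had 8103 and 5373 FPKM and *rps-7* had 7875 and 5311 FPKM. The large-subunit genes *rpl-27*, *rpl-23*, *rpl-10L*, *rpl-29*, *rpl-24*, *rpl-7*, *rpl-35A*, *rpl-6* and *rpl-14* and the small-subunit genes *rps-16* and *rps-15* were also among the first 25, from 7612 FPKM (*rpl-10L*) to 6260 FPKM (*rpl-14*) in library 1 and from 5662 FPKM (*rpl-27*) to 4060 FPKM (*rps-15*) in library 2. *ubq-2*, whose product joins ubiquitin to a large-subunit protein, had 6841 and 4392 FPKM. A like fusion with a small-subunit protein, *rps-27A* (deposited as *ubl-1*), had 2375 and 1854 FPKM, and the polyubiquitin gene *ubq-1* had 658 and 564 FPKM.

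Of 84 annotated members of this family, 79 were described, and they held 38.1% of the summed FPKM of library 1 and 29.3% of that of library 2. Their median was 5054 and 3292 FPKM, against 6.65 and 12.7 FPKM over all genes. The 28 small-subunit genes of the list had a median of 5518 and 3558 FPKM and all reached 1000 FPKM. The 51 large-subunit genes had 4632 and 3137 FPKM, with 48 of them at 1000 FPKM or more. Levels within the family were close, with 67 of 79 genes within 2-fold of the family's median. 78 of 79 were higher in library 1, by a median of 1.48-fold, as were 145 of the 149 genes at 1000 FPKM or more. The exception was *rpl-42* (C09H10.1), the lowest member, with 1.66 and 4.78 FPKM. For 3 further members, *rps-14*, *rps-3A* and *rpl-27A*, library 1 carried a failed estimate, and library 2 had 2737, 3337 and 5559 FPKM. These members count in neither library's share.

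Where a ribosomal protein has a pair of genes, the members of the pair were seldom equal. *rpl-37.1* (W01D2.1) had 7865 and 4520 FPKM, while *rpl-37.2* had 182 and 91.5 FPKM, a 43.1-fold and 49.4-fold difference. *rpl-41.2* exceeded *rpl-41.1*, which had 517 and 418 FPKM, by 35.2-fold and 25.1-fold. The other 3 pairs were closer. *rpl-23A.2* had 3876 and 2748 FPKM and *rpl-23A.1* had 1307 and 1082 FPKM. *rpl-11.1* had 4503 and 2508 FPKM, against 2180 and 1753 FPKM for *rpl-11.2*. *rplp-2.1*, an acidic stalk protein, had 5403 and 3438 FPKM and *rplp-2.2* had 3015 and 1439 FPKM. In all 5 pairs the same member was higher in both libraries. Reads that mapped to several sites were filtered by the authors, so levels of near-identical copies, here and in the families below, may be too low and are uncertain.

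**Figure D2:**
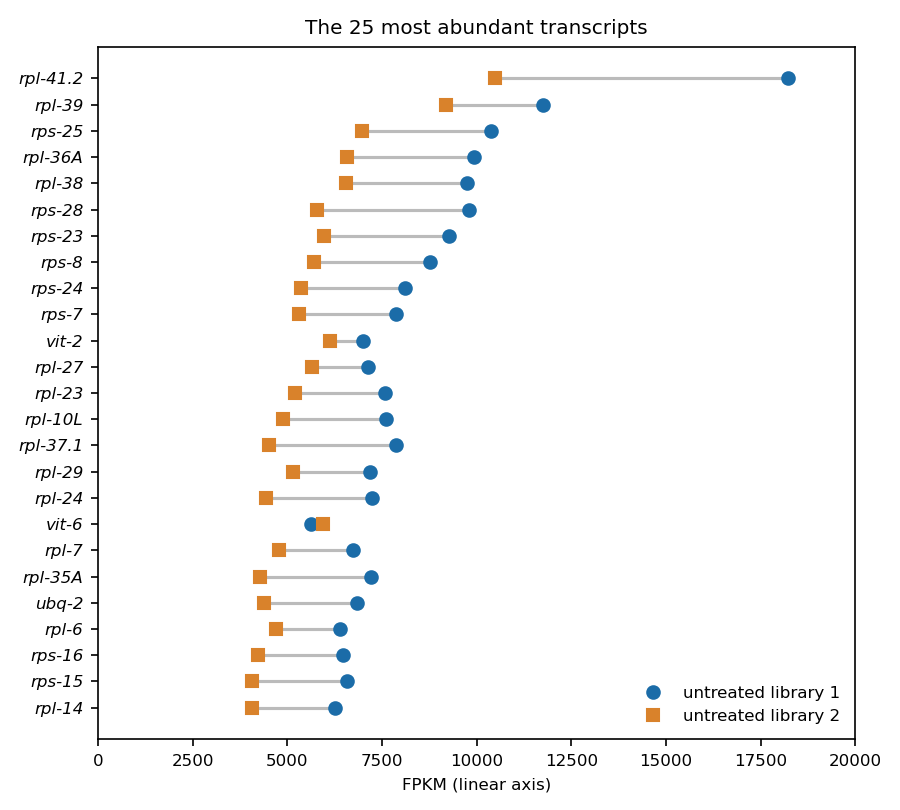
FPKM of the 25 genes with the highest mean, in untreated library 1 (circles) and untreated library 2 (squares), on a linear axis from 0. 23 encode ribosomal proteins and *vit-2* and *vit-6* encode yolk proteins, and *vit-6* is the only 1 of the 25 that is higher in library 2.

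The remaining places among the first 25 went to yolk protein genes. Vitellogenins are made in the intestine of adult hermaphrodites, secreted into the body cavity and taken up by oocytes through the receptor RME-2. *vit-2*, on chromosome X from 5101032 to 5106169, ranked 11 with 6994 and 6123 FPKM. *vit-6*, on chromosome IV, ranked 18 with 5627 and 5952 FPKM. They were followed by *vit-5* with 4416 and 3615 FPKM, *vit-3* with 2582 and 1995 FPKM and *vit-4* with 2417 and 1810 FPKM. *vit-1* was the lowest with 911 and 963 FPKM, 7.68-fold and 6.36-fold under *vit-2*. The order of the 6 genes was the same in both libraries. 5 of the 6 lie on chromosome X. *vit-3* and *vit-4* are near-identical, so the split between them is uncertain.

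Yolk transcripts are long, which sets them apart from the rest of the top class. The 6 genes held 2.06% and 2.12% of the summed FPKM, which is a measure per length of transcript. When each gene was weighted by its annotated transcript length, as its share of sequenced fragments would be, they held 9.89% and 8.95%, while the share of ribosomal protein genes was 19.4% and 13.3%. *vit-2* has a coding length of 4839 bases, and the 5 genes of the top class with a coding length of at least 3000 bases were all vitellogenin genes. The median coding length was 526 bases in the class of 1000 FPKM or more, against 1056 over all 14517 genes with a coding length. It was 744 bases from 100 to under 1000 FPKM and 1161 from 10 to under 100. Leaving out the ribosomal protein list, the 72 other genes of the top class had a median of 858 bases. Genes of the top class also had fewer exons, a median of 3 against 6.

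Genes of the ribosomal protein list filled 76 of the 149 places in the top class, and cuticle collagen genes filled 13. The next largest groups were the yolk genes and the body wall muscle list with 5 each, and the actin, translation elongation, respiratory chain, and myosin and tropomyosin lists with 4 each, some genes being in more than 1 list. 29 genes of the class were in none of the lists. Several of these act in or beside the ribosome. *fau-1* (deposited as *rps-30*), a fusion of a ubiquitin-like part and a small-subunit protein, had 5695 and 3358 FPKM. *rack-1*, a ribosome-associated scaffold, had 3444 and 2692 FPKM. *icd-2* and *icd-1*, the alpha and beta parts of the nascent polypeptide-associated complex, had 2742 and 1615 FPKM and 2432 and 1597 FPKM. *pab-1*, the poly(A)-binding protein, had 1355 and 1214 FPKM.

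Other genes outside the lists serve energy and general metabolism or are less well known. *ant-1.1*, the mitochondrial ADP/ATP exchanger, had 3879 and 3206 FPKM. *ndk-1*, a nucleoside diphosphate kinase, had 4332 and 2419 FPKM. *cyn-7*, a cyclophilin, had 3806 and 2714 FPKM. These values lay within 2-fold of each other, but those of a pair of related short genes did not. *pud-2.2* had 1523 FPKM in library 1 and 7396 in library 2, and *pud-1.1* had 1462 and 5912 FPKM. In library 2 *pud-2.2* was thus above *vit-2*. *nspa-1*, of the nematode-specific peptide family, had 4174 FPKM in library 1 and was listed at 0 in library 2, so its place at rank 96 rests on 1 library. It was 1 of 3 genes that averaged over 100 FPKM with a 0 in a library. All 3 are very short, with annotated transcripts of 105 bases (*nspa-1*), 185 bases (C28H8.14) and 129 bases (C05D9.12). Levels of transcripts this short are uncertain.

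The list of translation elongation factors, which carry tRNA to the ribosome and move it along the message, was also near the top. Its 7 described genes had a median of 1335 and 910 FPKM. *eef-2*, the translocation factor, had 2413 and 2055 FPKM, and *eef-1G* had 1894 and 1463 FPKM. The highest member was *iff-1*, a homologue of initiation factor eIF5A known for its role in the germline, with 3945 and 1937 FPKM. Its paralogue *iff-2* had 425 and 474 FPKM, so that *iff-1* exceeded it by 9.28-fold in library 1 and by 4.09-fold in library 2. *eef-1A.2* had 385 and 507 FPKM and *eef-1B.1* had 1335 and 910 FPKM, while *eef-1A.1* was not analysed here. *eef-1B.2* had 721 and 437 FPKM.

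Genes of energy metabolism followed at lower medians, with wide ranges. The 43 described nuclear genes listed for the respiratory chain and ATP synthase held 1.95% and 1.80% of the summed FPKM. Their median was 333 and 299 FPKM, and 35 of them reached 100 FPKM. The list was drawn by gene name, so subunits with only a sequence name are not in it and its share may be too low. *cyc-2.1*, cytochrome c, had 1685 and 1301 FPKM. *atp-2* and *atp-1*, the beta and alpha subunits of ATP synthase, had 1423 and 1413 FPKM and 1456 and 1245 FPKM, and so were nearly equal to each other. The assembly factor *cox-10*, an enzyme of heme A synthesis, was the lowest with 5.59 and 8.99 FPKM. The citrate cycle list (16 genes) had a median of 202 and 186 FPKM, led by *cts-1*, citrate synthase, with 788 and 661 FPKM. The malate dehydrogenase genes *mdh-1* and *mdh-2* had 587 and 490 FPKM and 475 and 445 FPKM. Glycolysis (19 genes) had 165 and 158 FPKM. Transcripts of the mitochondrial genome were not analysed here.

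Within glycolysis the glyceraldehyde-3-phosphate dehydrogenase genes were unequal. *gpd-3* had 704 and 583 FPKM and *gpd-2* had 554 and 515 FPKM, while *gpd-1* had 300 and 185 FPKM and *gpd-4* had 186 and 121 FPKM. The order was the same in both libraries. *aldo-2*, an aldolase, led the list with 794 and 630 FPKM, and *enol-1*, enolase, had 545 and 533 FPKM. The lowest was *pfk-1.2*, a phosphofructokinase paralogue, with 0.857 and 4.78 FPKM, while *pfk-1.1* had 34.9 and 53.2 FPKM.

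Protein folding and turnover genes lay well above the median gene. The 8 subunits of the cytosolic chaperonin CCT, which are needed in equal numbers in each particle, lay between a mean of 177 FPKM (*cct-8*) and 406 FPKM (*cct-5*). *cct-5* had 349 and 462 FPKM and was the only member higher in library 2. Of all genes from 100 to under 1000 FPKM, the class of all 8 subunits, 419 of 1150 were higher in library 2. *cct-4* had 304 and 271 FPKM, *cct-1* had 277 and 242 FPKM, *cct-7* had 266 and 233 FPKM, *cct-2* had 244.5 and 214 FPKM, *cct-3* had 239.5 and 215 FPKM and *cct-6* had 210 and 192 FPKM. The 30 described proteasome genes had a median of 231 and 195 FPKM, and 29 reached 100 FPKM. *pas-3*, a core particle subunit, was the highest with 476 and 342 FPKM, followed by *pas-2* with 396 and 308 FPKM. *rpn-6.2* was the exception at 11.1 and 20.0 FPKM, far from its paralogue *rpn-6.1* with 126 and 131 FPKM. The 71 mitochondrial ribosomal protein genes had a median of 70.6 and 59.9 FPKM, and 6 of them reached 100 FPKM, far below their cytosolic counterparts.

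The heat shock genes listed here as constitutive had a higher median than those listed as inducible, 229 and 270 FPKM against 90.2 and 39.6 FPKM, but their ranges overlapped. The split is a label, members of the first list may also respond to stress, and induction was not tested. *hsp-90* (deposited as *daf-21*) had 2502 and 1982 FPKM, and the Hsc70 chaperone gene *hsp-1* had 2269 and 1768 FPKM. The endoplasmic reticulum chaperone *hsp-4* had 269 and 270 FPKM, and the mitochondrial *hsp-6* and *hsp-60* had 229 and 294 FPKM and 136 and 174 FPKM. The small heat shock genes *hsp-25* and *hsp-43* were lowest of this list with 153 and 155 FPKM and 114 and 115.01 FPKM. Of the inducible small heat shock genes, *hsp-16.48* had 438 and 303 FPKM and *hsp-16.11* had 391 and 281 FPKM, so that their means exceeded those of all described genes of the first list other than *hsp-90* and *hsp-1*. For *hsp-3* and *hsp-110* of the first list library 1 carried a failed estimate, and library 2 had 398 and 189 FPKM. In library 2 *hsp-3* was thus above *hsp-16.48* and *hsp-16.11*. *hsp-16.2* had 94.8 and 41.3 FPKM and *hsp-16.41* had 90.2 and 39.6 FPKM. F44E5.4 and F44E5.5, of the Hsp70 family, had 28.6 and 27.1 FPKM and 26.7 and 28.7 FPKM. The inducible *hsp-70* was the lowest of the 7 described with 14.4 and 9.95 FPKM. The inducible list median was above that of all genes in both libraries. Of the 7 genes, 6 were higher in library 1, against 23.9% of all genes and 2213 of 6378 from 10 to under 100 FPKM. The *hsp-16* genes are near-identical pairs, and *hsp-16.1* and *hsp-16.49* were not analysed here.

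**Figure D3:**
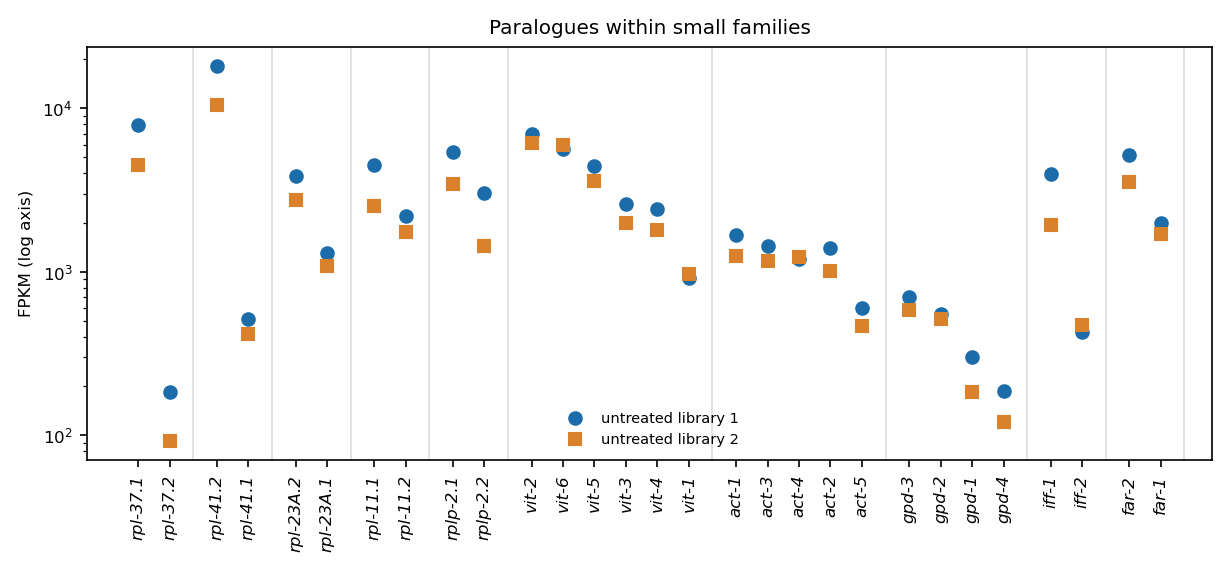
FPKM of the members of 10 small families in untreated library 1 (circles) and untreated library 2 (squares), on a log axis, with a grey line between families. Ribosomal pairs differ by up to 49.4-fold, while the actin genes *act-1* to *act-4* lie close together.

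The actin genes, whose products form thin filaments in muscle and the cytoskeleton in all cells, were all abundant. *act-1* had 1681 and 1248 FPKM, *act-3* had 1434 and 1159 FPKM and *act-2* had 1394 and 1017 FPKM. *act-4* was nearly equal in both libraries, at 1202 and 1238 FPKM. *act-5*, whose protein builds the microvilli of the intestine, was lowest at 599 and 464 FPKM. The first 3 are near-identical and cannot be told apart with certainty. Tubulin was split more widely. *tbb-2* and *tba-2* had 1138 and 1002 FPKM and 1000 and 783 FPKM, while *tba-5*, the lowest of the 12 described, had 0.988 and 2.79 FPKM. The gamma tubulin gene *tbg-1* had 48.9 and 44.4 FPKM.

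Collagen genes of the cuticle were the largest family after the ribosome by summed FPKM. The cuticle is made anew by the epidermis at each moult, from collagens that differ between stages. The 160 described genes held 3.53% and 3.76% of the summed FPKM. Their levels were spread widely, with 13 genes at 1000 FPKM or more, 56 at 100 or more and 13 under 1 FPKM. The family median was 30.2 and 61.6 FPKM. *col-124* was the highest with 3030 and 2074 FPKM, followed by *col-181* with 2606 and 1904 FPKM and *col-122* with 2578 and 1838 FPKM. *col-20* and *col-119* were nearly equal to each other, with 2204 and 1525 FPKM and 2202 and 1519 FPKM. *col-132* was the lowest with 0.114 and 0.243 FPKM. The most abundant collagens were higher in library 1, while 123 of the 160 genes were higher in library 2, a share near the 75.8% of all genes.

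Collagens known from adults and from larvae were both present. *col-19*, made in adults, was the most abundant of the stage markers with 1643 and 1177 FPKM. *col-7*, also of the adult cuticle, had 70.1 and 72.8 FPKM. *bli-1* and *bli-2*, which build the struts of the adult cuticle, had 9.77 and 51.1 FPKM and 34.1 and 131 FPKM. *dpy-13*, *rol-6* and *dpy-7*, made at each larval moult, had 129 and 421 FPKM, 31.2 and 96.8 FPKM, and 17.2 and 59.9 FPKM. *col-10* had 335 and 534 FPKM and *col-12* had 157 and 158 FPKM. The markers of the dauer larva, the resistant stage entered under crowding or hunger, differed most between the libraries among the marker lists. *col-2* had 0.212 FPKM in library 1 and 10.9 in library 2, and *cut-1* had 0.0655 and 7.49 FPKM. Both were under 1 FPKM in library 1 and near the median of all genes in library 2.

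Moulting genes were present in both libraries at moderate levels. The list holds proteases, protease inhibitors and matrix proteins needed to shed the old cuticle, with *nhr-23*, the nuclear receptor that times the moult. All 15 genes averaged over 1 FPKM and 11 reached 10 FPKM. The median was 8.26 FPKM in library 1 and 33.2 in library 2, against 6.65 and 12.7 over all genes, and all 15 were higher in library 2, against 75.8% of all genes. *mlt-8* had 36.1 and 117 FPKM, *noah-2* had 28.1 and 80.3 FPKM and *noah-1*, like *noah-2* a protein of the apical matrix, had 15.8 and 64.6 FPKM. *nhr-23* differed little, at 29 and 33.2 FPKM. The protease gene *nas-36* was the lowest with 0.914 and 3.24 FPKM.

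Genes of developmental timing and body axis were lower. The heterochronic genes set the order of larval fates. *lin-28*, an RNA-binding protein of early larvae, was the highest with 62.0 and 52.7 FPKM. *lin-42*, the period homologue, had 15.7 and 35.5 FPKM and *lin-14* had 10.3 and 28.3 FPKM. *daf-12* had 3.73 and 13.8 FPKM, *hbl-1* had 3.28 and 11.6 FPKM, *lin-29* had 1.11 and 5.79 FPKM and *lin-46* had 0.484 and 1.99 FPKM. Of the 7 genes, *lin-28* alone was higher in library 1, against 23.9% of all genes. The 6 Hox genes, which pattern the body from head to tail, were all between 1 and 20 FPKM in both libraries. *php-3* was the highest with 9.35 and 15.3 FPKM and *nob-1* had 4.97 and 9.03 FPKM, both of the posterior group. *lin-39* had 3.82 and 9.81 FPKM, *ceh-13* had 2.26 and 8.57 FPKM, *egl-5* had 3.65 and 4.79 FPKM and *mab-5* had 2.02 and 4.82 FPKM.

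Most transcripts of the early embryo were scarce. Of 19 genes known from the first zygotic transcription, 11 were described, 57.9% against 72.6% of all annotated protein-coding genes. Of the 11, 6 had a mean under 1 FPKM. The list's median was 0.680 and 1.18 FPKM. *pal-1*, whose message is loaded into the oocyte, was an exception with 101 and 69.8 FPKM. *tbx-9* had 19.2 and 12.5 FPKM, *elt-1* had 3.87 and 8.25 FPKM and *ref-1* had 1.83 and 3.54 FPKM. *pes-1* had 0.795 and 2.40 FPKM, *pes-10* had 0.130 and 1.18 FPKM and *tbx-38*, the lowest, had 0.0941 and 0.804 FPKM. The endoderm genes *end-1* and *end-3* and 6 others of the list were not analysed here.

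Oocyte transcripts were abundant, and of the tissue lists only body wall muscle had a higher median. The list holds RNA-binding proteins stored in the oocyte, the yolk receptor and eggshell proteins. Its 18 described genes had a median of 215 FPKM in library 1 and 143 in library 2, all were over 10 FPKM and 13 reached 100. All 18 were higher in library 1, against 23.9% of all genes. That share rose with level, from 2213 of 6378 genes from 10 to under 100 FPKM to 731 of 1150 from 100 to under 1000. *cey-2*, a Y-box RNA-binding protein, was the highest with 2442 and 1221 FPKM. *perm-2*, an eggshell protein, had 975 and 617 FPKM, and *cey-3* had 854 and 541 FPKM. The yolk receptor gene *rme-2* had 241 and 184 FPKM, far below the yolk genes themselves. *oma-1*, needed for oocyte maturation, had 176 and 128 FPKM. The lowest was *pie-1*, a protein of the germ lineage, with 78.2 and 43.9 FPKM. For *mex-5* and *egg-1* library 1 carried a failed estimate, and library 2 had 265 and 211 FPKM.

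The germline list, of stem cell regulators, P granule proteins and meiotic proteins, was similar in both libraries. Its 26 genes had a median of 45.5 and 50.9 FPKM, and 25 were at 10 FPKM or more. *cgh-1*, an RNA helicase, had 998 and 834 FPKM, *car-1*, which acts with it, had 811 and 610 FPKM, and *gld-1*, the translational repressor of the meiotic germline, had 684 and 414 FPKM. The P granule genes *pgl-1* and *glh-1* had 166 and 151 FPKM and 136 and 180 FPKM. The stem cell regulators *fbf-1* and *fbf-2* were lowest with 12.2 and 11.1 FPKM and 9.75 and 9.82 FPKM. Argonaute genes, which bind small RNAs, were led by germline members. *wago-1* had 228 and 200 FPKM, *hrde-1* had 157 and 113 FPKM and *csr-1* had 117 and 100 FPKM, while *wago-11* had 0.212 and 0.520 FPKM.

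Sperm were represented chiefly by the major sperm protein (MSP), which drives the crawling of nematode sperm and also signals to oocytes. The 30 described *msp* genes held 0.614% and 0.571% of the summed FPKM, with a median of 226 and 181 FPKM, and 27 reached 100 FPKM. *msp-59* had 452 and 318 FPKM, *msp-36* had 370 and 304 FPKM and *msp-152* had 367 and 304 FPKM. The lowest was *msp-42* with 5.13 and 4.97 FPKM. All 30 lie on chromosomes II (13 genes) and IV (17 genes). Their sequences are near-identical, so the single levels are uncertain and the family sum is safer.

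Other sperm genes were lower and differed by role. The list of 21 had a median of 16.3 and 29.5 FPKM, and in contrast to *msp*, of which 28 of 30 were higher in library 1, all 21 were higher in library 2. Over all genes 23.9% were higher in library 1 and 75.8% in library 2. The lists also lie at different levels. From 100 to under 1000 FPKM, where 27 *msp* genes lie, 731 of 1150 of all genes were higher in library 1. From 10 to under 100 FPKM, the level of this list's median, 4165 of 6378 were higher in library 2. *ssq-4* had 87.8 and 120 FPKM. The chromatin proteins *spch-1* and *spch-3* had 101 and 102 FPKM and 71.6 and 92.7 FPKM. The sperm phosphatase genes *gsp-4* and *gsp-3* had 28.2 and 37.5 FPKM and 22 and 42.7 FPKM. Genes for sperm activation and fertilization were scarce, with *spe-9* at 0.50 and 1.34 FPKM and *spe-42* at 0.354 and 1.29 FPKM. None of the 95 genes in the germline, oocyte, sperm and *msp* lists lies on chromosome X, against 14.3% of all genes described.

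Markers of males were at or near the floor. Males are rare in N2 cultures. Of 12 genes known for male neurons, tail or seminal fluid, 4 were described, 33.3% against 72.6% of all annotated protein-coding genes. Their median was 0.210 and 1.83 FPKM. *mab-3* had 0.584 and 3.14 FPKM, *her-1* was listed at 0 in library 1 and had 2.23 FPKM in library 2, *cwp-4* had 0.419 and 1.42 FPKM, and *try-5* was listed at 0 and had 1.02 FPKM. The polycystin genes *lov-1* and *pkd-2* were not analysed here.

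**Figure D4:**
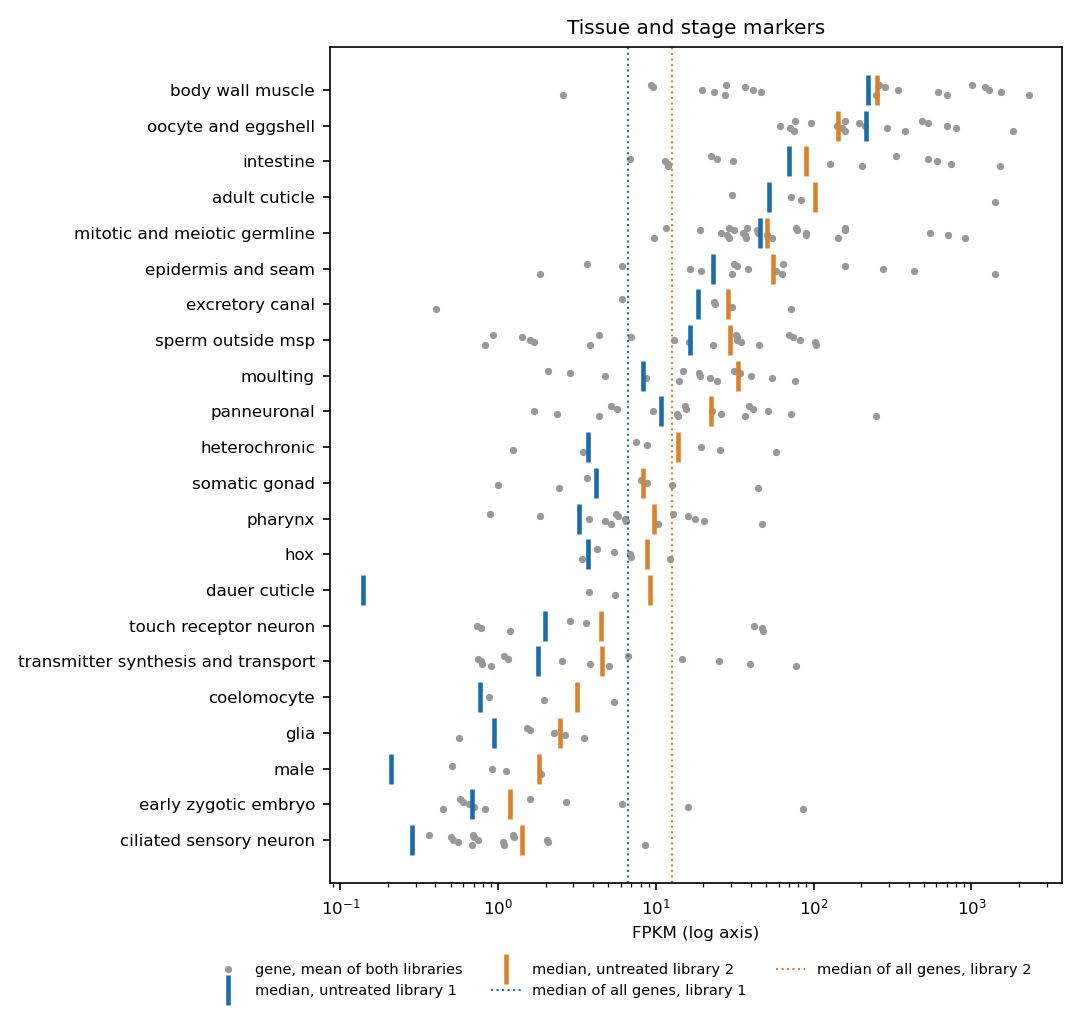
Mean FPKM of each gene (grey dots) in 22 tissue and stage lists on a log axis, with the list's median in untreated library 1 (blue) and untreated library 2 (orange) and the medians of all genes as dotted lines. The body wall muscle and oocyte lists have the highest medians in both libraries, and in most lists the median of library 2 lies to the right.

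Intestine markers were abundant in both libraries. The list of 14 genes had a median of 69.4 and 89 FPKM, and 13 reached 10 FPKM. Digestive enzymes led it. *asp-1*, an aspartyl protease, had 1792 and 1225 FPKM, *cpr-6*, of the cathepsin B type, had 693 and 781 FPKM, and the lysozyme gene *lys-1* had 652 and 565 FPKM. The metallothionein gene *mtl-2* had 311 and 359 FPKM. The transcription factors that set the fate of the tissue were low, *elt-7* with 8.09 and 15.7 FPKM and *elt-2*, the lowest of the list, with 4.03 and 9.75 FPKM. The gut esterase gene *ges-1*, long used as an intestinal marker, had 10.6 and 13.2 FPKM.

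Lipid-binding, digestive and some other families also had abundant members, whose tissues were not examined. *far-2*, of the fatty acid and retinol binding family, had 5184 and 3544 FPKM and *far-1* had 1977 and 1694 FPKM. *lbp-9*, an intracellular lipid-binding protein, had 1146 and 805 FPKM, while *lbp-8* was lowest with 0.771 and 0.205 FPKM. Saposin-like and lysozyme genes were led by *spp-5* with 1676 and 1222 FPKM and *spp-17* with 1973 and 876 FPKM, and 4 of 31 were under 1 FPKM. Of the transthyretin-like genes, a nematode-expanded family of secreted proteins, *ttr-15* had 811 and 995 FPKM and *ttr-16* had 777 and 799 FPKM. In this family 48 of 51 genes were higher in library 2, against 75.8% of all genes. The vacuolar ATPase genes had a median of 221 and 242 FPKM, led by *vha-2* with 1119 and 908 FPKM.

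Body wall muscle was the tissue with the highest list median, 220 and 250 FPKM over 21 genes. Thin filament and light chain genes were the most abundant. *pat-10*, troponin C, had 2369 and 2243 FPKM, *mlc-2* and *mlc-3*, myosin light chains, had 1700 and 1370 FPKM and 1410 and 1184 FPKM, and *lev-11*, tropomyosin, had 1010 and 1002 FPKM. The major heavy chain gene *unc-54* had 244 and 442 FPKM, which was 14.97-fold and 11.4-fold above the second heavy chain gene *myo-3* with 16.3 and 38.9 FPKM. *unc-15*, paramyosin, had 220 and 348 FPKM. Giant proteins were low per length, with *unc-89* at 3.53 and 15.6 FPKM and *unc-22*, twitchin, at 1.89 and 16.8 FPKM. The muscle transcription factor *hlh-1* was the lowest with 1.22 and 3.97 FPKM.

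The pharynx list had a lower median than the body wall muscle list, but these lists differ in the kinds of gene they hold. The pharynx, the feeding organ, has its own myosins and troponins. The list of 15 genes had a median of 3.27 FPKM in library 1 and 9.67 in library 2, under the median of all genes in both. Of the 15, 14 were higher in library 2, against 75.8% of all genes and 5651 of 6077 from 1 to under 10 FPKM. *tni-4*, a pharyngeal troponin I, had 21.5 and 72.9 FPKM and *tnt-4*, its troponin T, had 5.35 and 34.9 FPKM. The myosin genes *myo-2* and *myo-1* had 4.01 and 27.9 FPKM and 3.27 and 22.4 FPKM. Of the body wall heavy chain genes, *myo-3* had 16.3 and 38.9 FPKM and *unc-54* had 244 and 442 FPKM. *pha-4*, the factor that specifies the organ, had 3.43 and 9.27 FPKM, and *ceh-22* was lowest with 0.119 and 1.67 FPKM.

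The epidermis list of 16 genes had a median of 23.1 and 55.5 FPKM, led by the collagens given above. Its transcription factors were spread over a wide range. *lin-26* had 65.7 and 60.6 FPKM, *elt-3* had 12.8 and 25.9 FPKM, *elt-1* had 3.87 and 8.25 FPKM and the seam cell factor *ceh-16* was lowest with 1.04 and 2.65 FPKM. Basement membrane genes, made largely by muscle and gonad, had a median of 18.6 and 36.1 FPKM, and all 10 were higher in library 2, against 75.8% of all genes. *ost-1*, SPARC, had 246 and 430 FPKM, and the collagen IV chains *let-2* and *emb-9* had 84.4 and 186 FPKM and 67.1 and 121 FPKM. The laminin gene *lam-3* was lowest with 0.420 and 5.51 FPKM.

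Small cell types differed in level. The excretory canal, a single cell, had a list median of 18.4 and 28.7 FPKM over 6 genes, above that of all genes in both libraries. *vha-5* had 49.0 and 95.6 FPKM and *exc-4* had 24.7 and 35.8 FPKM, both of which other cells may also express. *exc-9* had 17.8 and 29.8 FPKM, *aqp-8*, an aquaporin, had 19.1 and 27.6 FPKM, *exc-5* had 1.99 and 10.1 FPKM and *pgp-12* had 0.148 and 0.657 FPKM. Coelomocyte and glial genes were lower. The coelomocyte genes *cup-4*, *lgc-26* and *unc-122* had 3.18 and 7.65 FPKM, 0.767 and 3.16 FPKM, and 0.509 and 1.25 FPKM. The 6 glial genes had a median of 0.939 and 2.45 FPKM, with *vap-1* highest at 2.2 and 4.78 FPKM and *grl-2* lowest at 0.253 and 0.880 FPKM. Between them *ptr-10* had 1.04 and 4.24 FPKM, *fig-1* had 1.98 and 2.56 FPKM, *daf-6* had 0.840 and 2.34 FPKM and *kcc-3* had 0.823 and 2.24 FPKM. In the somatic gonad, the sheath innexin gene *inx-8* had 45.1 and 43.2 FPKM and its partner *inx-9* had 10.2 and 15 FPKM. *ceh-18* had 4.19 and 13.4 FPKM, *sth-1* had 7.83 and 8.34 FPKM, *lim-7* had 1.74 and 5.58 FPKM and *fkh-6* had 1.55 and 3.30 FPKM. *lag-2*, the signal of the distal tip cell to germline stem cells, had 0.558 and 1.45 FPKM.

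Panneuronal genes ran from a mean of 1.70 FPKM to 248 FPKM. The list of 18, of synaptic vesicle and neuropeptide processing proteins, had a median of 10.8 and 22.3 FPKM. *snb-1*, synaptobrevin, was nearly equal in both libraries with 248 and 247 FPKM, *egl-21*, a carboxypeptidase of neuropeptide maturation, had 66.0 and 78.5 FPKM and *egl-3*, a proprotein convertase, had 35.9 and 66.1 FPKM. *rab-3* had 8.49 and 22.5 FPKM. The lowest was *rgef-1*, a frequently used panneuronal marker, with 0.634 and 2.76 FPKM. *unc-10* had 0.533 FPKM in library 1, so that it and *rgef-1* rest on few fragments there.

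Single neuron classes were lower still. Of the genes of transmitter synthesis and transport, *tdc-1* and *tbh-1*, of tyramine and octopamine synthesis and also expressed in the gonad, had 97.5 and 56.6 FPKM and 38.9 and 40.1 FPKM. *unc-25*, which makes GABA, had 7.99 and 21.5 FPKM, *unc-17*, the acetylcholine transporter, had 4.07 and 9.29 FPKM and *eat-4*, the glutamate transporter, had 2.43 and 5.24 FPKM. The dopamine genes *cat-2* and *dat-1* had 0.220 and 1.35 FPKM and 0.510 and 1.04 FPKM. The touch receptor list split in its parts. The tubulins *mec-12* and *mec-7* and the tubulin acetyltransferase *mec-17* had 42.7 and 53.2 FPKM, 43.1 and 40.0 FPKM, and 40.2 and 53.3 FPKM, while the channel subunits *mec-4* and *mec-10* had 0.882 and 1.51 FPKM and 0.340 and 1.13 FPKM. *mec-2* had 1.60 and 5.62 FPKM, *mec-18* had 2.34 and 3.34 FPKM and *mec-3*, the transcription factor of these cells, had 0.567 and 0.988 FPKM.

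Genes of ciliated sensory neurons were among the lowest, with a list median of 0.286 and 1.42 FPKM over 15 genes of ciliary transport. Of the other marker lists, the male and dauer lists were lower in library 1 and the early embryo list was lower in library 2. *daf-19*, the RFX factor that controls ciliary genes, was the only member over 5 FPKM, at 6.02 and 11.1 FPKM. *osm-3*, the ciliary kinesin, had 0.735 and 1.77 FPKM, *osm-6* had 0.258 and 1.1 FPKM and *xbx-1* was lowest with 0.263 and 0.469 FPKM. *che-11* was listed at 0 in library 1 and had 1.11 FPKM in library 2. All 15 were higher in library 2, against 75.8% of all genes. At the levels of this list that share was higher, 1400 of 1546 genes above 0 but under 1 FPKM and 5651 of 6077 from 1 to under 10.

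Neuropeptide genes were at levels like those of the panneuronal list. The 101 described *flp* and *nlp* genes had a median of 14.3 and 19.2 FPKM, 68 were at 10 FPKM or more and only 1 was under 1. *nlp-36* had 320 and 246 FPKM and *nlp-40*, secreted by the intestine, had 254 and 211 FPKM. *nlp-29* and *nlp-33*, antimicrobial peptides of the epidermis in spite of their names, differed between the libraries, with 21.6 and 180 FPKM and 103.7 and 402 FPKM. The 27 insulin-like peptide genes had a median of 1.63 and 5.62 FPKM, led by *ins-27* with 34.5 and 47.6 FPKM and *ins-19* with 43.8 and 15.9 FPKM. The ligand-gated and two-pore channel genes had 0.601 and 1.79 FPKM, with 39 of 94 under 1 FPKM.

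Chemoreceptors, the largest gene family of the genome, were nearly missing from the ranking. Only 44 of 1309 annotated protein-coding members, 3.36%, were described, against 72.6% of all annotated protein-coding genes. The family median was 0.662 and 1.41 FPKM, and 22 of the 45 listed genes were under 1 FPKM. *sri-40* was the highest with 24.9 and 17.1 FPKM, followed by *str-176* with 5.59 and 14.7 FPKM and *srr-4* with 6.72 and 11.0 FPKM. *srd-7* was lowest, listed at 0 in library 1 and at 0.225 FPKM in library 2. Members that were not described are not thereby shown to be silent.

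Other expanded families differed in the share described, which was 72.6% over all annotated protein-coding genes. For C-type lectins 107 of 239 annotated protein-coding genes were described, 44.8%, and for F-box genes 146 of 322, 45.3%. Nuclear hormone receptors were nearer to the share of all genes with 174 of 269, 64.7%. Cuticle collagens were above it with 158 of 175, 90.3%. The C-type lectin median was 2.2 and 4.30 FPKM, but *clec-87* had 1004 and 557 FPKM and *clec-63* had 917 and 568 FPKM. No F-box gene other than *fbxa-215*, with 126 and 90.6 FPKM, had a mean over 100 FPKM. The highest nuclear receptor was *nhr-49*, a regulator of fat metabolism, with 52.4 and 69.4 FPKM, and the family median was 2.09 and 5.10 FPKM. *ceh-38* led the homeobox genes with 38.3 and 45.3 FPKM. The hedgehog-related gene *grd-5* had 99.5 and 195 FPKM. Of its family 41 of 44 genes were higher in library 2, against 75.8% of all genes and 5651 of 6077 from 1 to under 10 FPKM.

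Most genes of families that include detoxification enzymes were at low to moderate levels in these untreated animals. The role of single members was not examined. Of the glutathione S-transferases, *gst-1* had 507 and 411 FPKM and *gst-7* had 183 and 207 FPKM, and 22 of 43 described genes reached 10 FPKM. *gst-4*, often used as a reporter of the factor SKN-1, had 42.6 and 80.6 FPKM. The UDP-glucuronosyltransferases had a median of 2.68 and 4.98 FPKM, led by *ugt-22* with 28.5 and 82.4 FPKM. The cytochrome P450 genes had 2.2 and 6.17 FPKM. Their 3 highest members were the near-identical *cyp-31A5*, *cyp-31A2* and *cyp-31A3*, with 68.7 and 52.8 FPKM, 49.8 and 45.2 FPKM, and 43.4 and 31.3 FPKM.

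**Figure D5:**
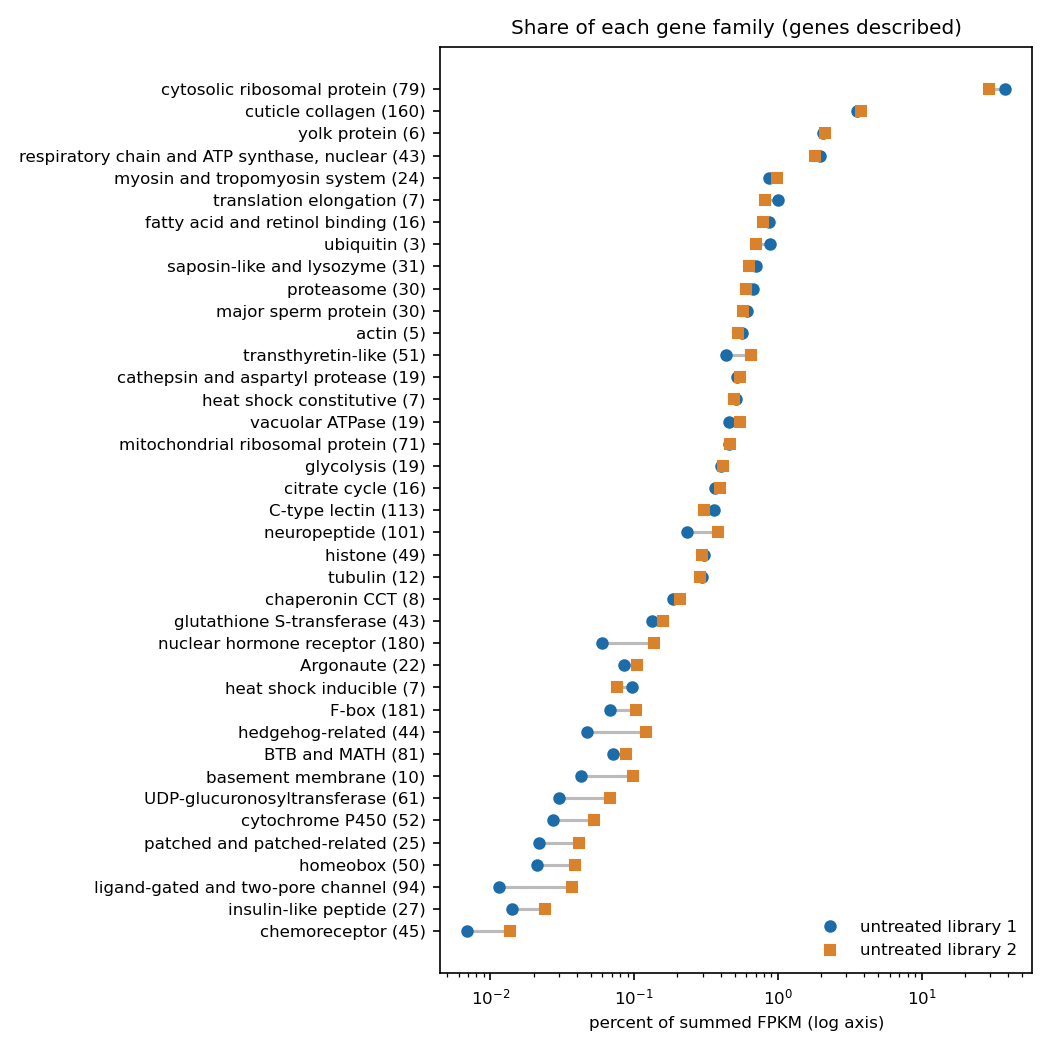
Percent of the summed FPKM of untreated library 1 (circles) and untreated library 2 (squares) held by each gene family, on a log axis, with the number of genes described in brackets. Ribosomal protein genes hold 38.1% and 29.3%, and the cuticle collagens that follow hold 3.53% and 3.76%.

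Genes used as references in quantitative PCR were close between the libraries. The 8 genes had medians of 154 and 153 FPKM, and 4 were higher in each library, while 75.8% of all genes were higher in library 2. Closeness was common at the level of these medians. From 100 to under 1000 FPKM, 1078 of 1150 genes lay within 2-fold, and 419 were higher in library 2. *cdc-42* had 199 and 172 FPKM, *iscu-1* (Y45F10D.4) had 162 and 153 FPKM and *pmp-3* had 30.9 and 34.9 FPKM. *tba-1* had 513 and 427 FPKM, *csq-1* had 147 and 152 FPKM, *eif-3.C* had 115.3 and 127.3 FPKM and *ama-1*, the large subunit of RNA polymerase II, had 23.2 and 28 FPKM. *act-1*, given above, was the highest. *ama-1* was the lowest of the list.

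Histone levels have to be read with the poly(A) capture in mind, since most messages of replication-dependent histones lack a poly(A) tail. Of 82 annotated histone genes 49 were described, 59.8% against 72.6% of all annotated protein-coding genes. Their median was 14.3 and 10.9 FPKM. The highest were variants, whose messages are known to be polyadenylated in other animals. *htz-1*, the H2A.Z variant, had 471 and 357 FPKM, *his-72*, an H3.3 variant, had 371 and 330 FPKM and *his-74* had 449 and 229 FPKM. The linker histone gene *hil-8* was lowest, listed at 0 in library 1 and at 1.78 FPKM in library 2.

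Genes with only a sequence name formed a large but low group. They made up 5994 of the 14511 protein-coding genes described, with a median of 3.74 and 8.43 FPKM, against 13.4 and 20.5 FPKM for the 8517 genes with a gene name. 230 of them, 3.84%, reached 100 FPKM, compared with 12.3% of the named genes. The most abundant was Y82E9BR.3, on chromosome III, with 5371 and 3398 FPKM, which placed it at rank 42. Y119D3B.21 followed with 1875 and 1225 FPKM and C17F4.7 with 1702 and 1100 FPKM. F46H5.3 had 1446 and 1278 FPKM and R53.4 had 1470 and 1095 FPKM. All 5 were within 2-fold between the libraries. The entry Y38H6C.1 (1), at rank 75 with 3521 and 2642 FPKM, has no match in RefSeq and so no gene type. It is not counted in this group.

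Noncoding and pseudogene entries held little of the sum. C28H8.14, an ncRNA gene on chromosome III from 5916268 to 5916938, was listed at 0 in library 1 and had 1570 FPKM in library 2. *tts-1*, a long ncRNA that associates with ribosomes, had 78.4 and 372 FPKM. *lep-5*, a long noncoding RNA of developmental timing, had 247 and 249.6 FPKM. C49F5.11, an ncRNA gene on chromosome X, had 213 and 459 FPKM. Y65B4A.11, annotated as a snoRNA with 355 and 332 FPKM, overlaps an exon of the protein-coding gene Y65B4A.6 on the same strand, so its reads cannot be told apart from those of that gene. The ribosomal RNA genes *rrn-3.1* and *rrn-2.1* still had 362 and 259 FPKM and 392 and 204 FPKM after poly(A) capture. Pseudogenes were led by F07H5.5 with 496 and 536 FPKM and ZC513.7 with 378 and 463 FPKM. ZC513.7 overlaps an exon of the protein-coding gene ZC513.5 on the other strand, so its level is uncertain. Next came B0250.3 with 270.4 and 206 FPKM, W08D2.9 with 213 and 241 FPKM and F07H5.3 with 182 and 180 FPKM. The 435 pseudogenes described had a median of 0.929 and 2.79 FPKM. Of the 624 noncoding and pseudogene entries, 91 overlap an exon of a protein-coding gene, and the use of strand in assigning reads is not given in the sources used here.

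Chromosomes differed in level as well as in gene content. Genes of chromosome X had the lowest median, 3.48 and 7.61 FPKM, followed by those of chromosome V with 3.89 and 8.66 FPKM. Chromosomes III and I had the highest, 14.7 and 20.98 FPKM and 13.6 and 20.0 FPKM. Of the 2192 genes on X, 117, 5.34%, averaged 100 FPKM or more, compared with 248 of 2334, 10.6%, on III. The X held 19.5% of the genes above 0 but under 1 FPKM and 9.40% of those at 1000 FPKM or more. The 14 genes on X at 1000 FPKM or more included *vit-2*, *vit-5*, *vit-3* and *vit-4*, along with the collagen genes *col-181* and *col-19* and the muscle genes *mlc-2* and *act-4*.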

How the data were processed

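RNA was extracted from mixed-stage N2 populations, enriched by poly(A) capture and sequenced as paired ends. Per the labels and the methods of the study, reads were mapped to WBcel235 by TopHat, those with several mapping sites were removed, and Cufflinks and Cuffdiff were run. Versions are not given in the sources used here. The authors deposited FPKM of each gene and library with confidence bounds. FPKM are scaled to length and depth and are not counts, so no count model was used and the fragments behind a gene are not given. The deposited table also holds FPKM per condition and the log2 fold changes, p-values and q-values of the authors' own comparison, none of which were used, and 6 columns of the cisplatin libraries, which were not analysed here. Columns were matched to samples by name.

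Read as 95% Poisson intervals (1.96 standard deviations), the deposited bounds correspond to about 6.95 M fragments in library 1 and 6.47 M in library 2. These are relative guides, because 9.70% and 10.4% of FPKM above 0 lie over their own upper bound. Read in this way the bounds stand for counting error only, and what they include is not given in the sources used here.

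Failed estimates, 33 in library 1 and 26 in library 2 with 1 gene in both, took out 58 genes. IDs were matched to RefSeq on WBcel235, 15193 of 15408, each on the chromosome of the deposited table, and current gene names were used. Transcript, exon and coding lengths are those of the longest transcript in the Ensembl 115 annotation, without the stop codon. Genes were ranked by mean FPKM over both libraries. Detection was set at a mean of 1 FPKM, classes at 1, 10, 100 and 1000 FPKM, and the pseudocount for log2 values at 0.5. A list share is the list's summed FPKM as a percent of the library's sum. Annotated totals of families are protein-coding genes with such a name, and of marker lists the genes named in the list. Lists were drawn up from general worm biology. The rule for named genes took the 25 highest genes, in each list the 3 highest, the lowest and all members of lists of at most 8 genes, and 5 genes each of those with a sequence name only, noncoding genes and pseudogenes, with further members for their role. In lists of more than 8 genes not all of these are printed. The members and the lists were chosen with earlier results of these data known. No test was run. The summaries were computed with pandas, numpy and scipy, and were tested on simulated data with known shares. Alternatives were leaving out each library, keeping failed estimates at 0, scaling each library to an equal sum, a geometric mean, and other minimums and pseudocounts.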

Additional observations from a re-analysis of the deposited data

How the results depend on the processing

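With 2 libraries, each mean rests on both, and low genes depend on which library is read. The marker medians that moved by more than the spread between the libraries were few. For body wall muscle the median of the list's means was 248 FPKM, and 185 FPKM when failed estimates were kept at 0, because *unc-87* then enters the list. Taken from a single library it lay between 220 and 250 FPKM. For the germline list it was 44.1 FPKM from the means and between 45.5 and 50.9 FPKM from single libraries. For sperm genes outside *msp* it was 22.9 FPKM, and 32.4 FPKM over members with a mean of at least 1 FPKM. The other 113 of 117 alternative values, over 21 results, stayed within that spread, within 1.5 times for counts, or within 0.02 for the correlation of the libraries. The number of genes at 1 FPKM or more ran from 12048 in library 1 alone to 14477 in library 2 alone, and the number that hold 50% of the sum from 124 to 249. No paired analysis was possible because no comparison between groups was made. Depth limits values under 1 FPKM, and the bounds give no read counts.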

Other observations

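Of 1296 genes that averaged 100 FPKM or more and were above 0 in both libraries, 24 were over 3-fold higher in library 2 and 3 were over 3-fold higher in library 1. The widest gap in favour of library 1 was *acdh-1*, an acyl-CoA dehydrogenase gene known to respond to diet and vitamin B12, with 216 and 8.03 FPKM. F23A7.8 had 1487 and 364 FPKM and F23A7.4 had 913 and 281 FPKM, and their sequence names place them on the same clone. *hphd-1*, which like *acdh-1* belongs to propionate breakdown, had 147 and 54.2 FPKM. These 4 genes were picked after their values were seen.

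In favour of library 2, F45D11.14 had 46.4 and 987 FPKM, a 21.3-fold gap. *pud-4* had 73.996 and 672 FPKM, 9.08-fold apart, and thus moved with *pud-1.1* and *pud-2.2*. *npa-1*, which encodes a nematode polyprotein that binds lipids, had 27.2 and 175 FPKM. *dap-1* had 394 and 1482 FPKM. These genes too were picked after their values were seen, and no test between the libraries was made.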
